A study of Mus musculus with 2 samples.

Results

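The homeobox and Pax transcription factor genes described here are the 102 protein-coding genes, of 21951 in GENCODE release M21, whose symbols begin with Hoxa, Hoxb, Hoxc, Hoxd, Nkx, Lhx, Pou, Pax, Dlx or Irx and a digit, or with the prefix of the Six-family genes and a digit. Nkx2-2 and Nkx6-2 were left out by the rule that chose the set. The 4 Hox clusters held 39 of the genes (Hoxa 11, Hoxb 10, Hoxc 9, Hoxd 9). The other 63 fell into 7 families, with 12 Nkx, 8 Lhx, 16 Pou, 9 Pax, 6 Dlx, 6 Irx and 6 Six-family genes. The rule uses names and no measured value. Of the members so chosen, 1, Pou2af1, is a B-cell coactivator of POU proteins and has no homeodomain of its own.

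Prrc2a is a proline-rich RNA-binding protein that has been studied as a reader of m6A, the methylated adenosine of mRNA. RIP-seq, which sequences RNA recovered with an immunoprecipitated protein, was performed with an antibody against Prrc2a on whole brain of wild-type C57BL/6J male mice 4 weeks of age. There was 1 condition with 2 replicates, the protocol describes 3 brains, and which brains went into which replicate is not stated. All cell types of the brain were lysed together, so a peak names a transcript and not the cell that held it, and fewer cells of a type cannot be told apart from less RNA per cell.

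Homeodomain proteins bind DNA through a fold of helices whose last helix lies in the major groove. In the embryo, Hox genes give positional identity along the hindbrain, spinal cord and body axis, and are largely silent in the forebrain. Lhx, Dlx, Nkx, Pax, Irx, Pou and Six-family genes pattern the brain and specify its neurons, and some stay active in the adult. POU proteins bind DNA with a POU-specific domain beside the homeodomain, and Pax proteins with a paired domain, which in several Pax genes stands without a full homeodomain.

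The peak lists held 18129 peaks in replicate 1 and 18671 in replicate 2, of which 46.2% and 47.8% overlapped a peak of the other replicate by at least 1 bp. Such overlapping peaks are called shared. Each peak came with a position on mm10 (GRCm38) and a fold enrichment, the ratio of the immunoprecipitate over a control that the methods do not name, with a median of 2.84 in replicate 1 and 2.63 in replicate 2. Read totals are not in the files used here, so sequencing depth is unknown, and for genes without peaks, absence of binding and lack of reads cannot be told apart. A peak is not an expression level. Among markers of the tissue, 1 of 5 astrocyte markers (Slc1a2), 1 of 8 oligodendroglial markers (Olig2), 1 of 4 microglial markers (Csf1r) and 0 of 8 neuronal markers had a shared peak over their exons. With 12.0% of all protein-coding genes at this level, these counts are no check of the tissue. Of 8 pituitary markers none had a shared peak, and Gh and Prl had peaks in replicate 1 only. With 1 condition there was no comparison between groups of samples and no test was made. Both replicates are given side by side.

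The homeodomain is the stretch of coding sequence that these genes share, so the codons of its recognition helix are shown first, as a landmark for where the peaks lay. The search was for tryptophan, phenylalanine, any residue, asparagine, any residue and arginine, encoded by 18 bases, in the main coding transcript. It matched in 94 of the 102 genes. The other 8, among them Pax1, Pax2, Pax5, Pax8, Pax9, Pou2af1 and Pou5f2, gave no match. Peaks covered all 18 bases in both replicates in 5 genes, namely Pou3f1, Pou3f2, Pou3f3, Pou6f1 and Dlx1. In Lhx6 a peak covered all of them in replicate 2 alone, and the replicate 1 peak covered part of them. The sequences of those 6 genes are shown with Pou3f4 and Dlx2, relatives whose codons lay under no peak. Each run reads 5′ to 3′ on the gene's strand along the coding sequence, the 18 codon bases are in capitals with 30 bases on either side, and the GRCm38 position is that of the capitals.
Pou3f1, chr4:124658856-124658873, plus strand: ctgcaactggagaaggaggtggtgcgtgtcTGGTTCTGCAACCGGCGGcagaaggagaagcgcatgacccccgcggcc
Pou3f2, chr4:22486908-22486925, minus strand: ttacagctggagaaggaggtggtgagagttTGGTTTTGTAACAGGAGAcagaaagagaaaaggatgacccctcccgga
Pou3f3, chr1:42698493-42698510, plus strand: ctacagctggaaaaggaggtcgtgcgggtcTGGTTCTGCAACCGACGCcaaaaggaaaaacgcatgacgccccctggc
Pou3f4, chrX:110815437-110815454, plus strand: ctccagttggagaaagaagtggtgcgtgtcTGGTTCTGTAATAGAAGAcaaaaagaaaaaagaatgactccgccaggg
Pou6f1, chr15:100578321-100578338, minus strand: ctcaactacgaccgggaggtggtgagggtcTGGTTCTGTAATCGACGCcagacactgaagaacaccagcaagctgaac
Dlx1, chr2:71532273-71532290, plus strand: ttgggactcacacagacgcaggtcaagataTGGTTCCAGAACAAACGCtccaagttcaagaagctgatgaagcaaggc
Dlx2, chr2:71544898-71544915, minus strand: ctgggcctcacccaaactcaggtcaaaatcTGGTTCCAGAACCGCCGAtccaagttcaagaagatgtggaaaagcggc
Lhx6, chr2:36091116-36091133, minus strand: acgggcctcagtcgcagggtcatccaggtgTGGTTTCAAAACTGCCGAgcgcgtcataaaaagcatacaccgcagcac

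The 4 Pou3 genes were alike but not identical over these windows. Between pairs of them 55 to 64 of the 78 bases were the same (70.5% to 82.1%), with the highest identity between Pou3f1 and Pou3f3. Dlx1 and Dlx2 shared 60 of 78 bases (76.9%). The authors kept only reads with a single place in the genome.

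Prrc2a peaks lay on a minority of the homeobox and Pax genes, and they were unevenly spread over the families. Of the 102 genes, 9 had a shared peak over their exons (8.82%), against 12.0% of all protein-coding genes. Any peak of replicate 1 lay over 11 of them (10.8%), against 16.5% of all genes, and any peak of replicate 2 lay over 13 (12.7%), against 21.0%. The mean over the replicates was 12.0 genes ± 1.41 (SD, n = 2). A further 6 genes had a peak in 1 replicate only, and 87 had none. All 9 genes with a shared peak belonged to 3 families. They were Pou3f1, Pou3f2, Pou3f3, Pou2f1 and Pou6f1 of the Pou family (5 of 16, 31.2%), Lhx2 and Lhx6 of the LIM homeobox family (2 of 8, 25.0%), and Dlx1 and Dlx2 of the distal-less family (2 of 6, 33.3%). No Hox, Nkx, Pax, Irx or Six-family gene had one.

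**Figure D1:**
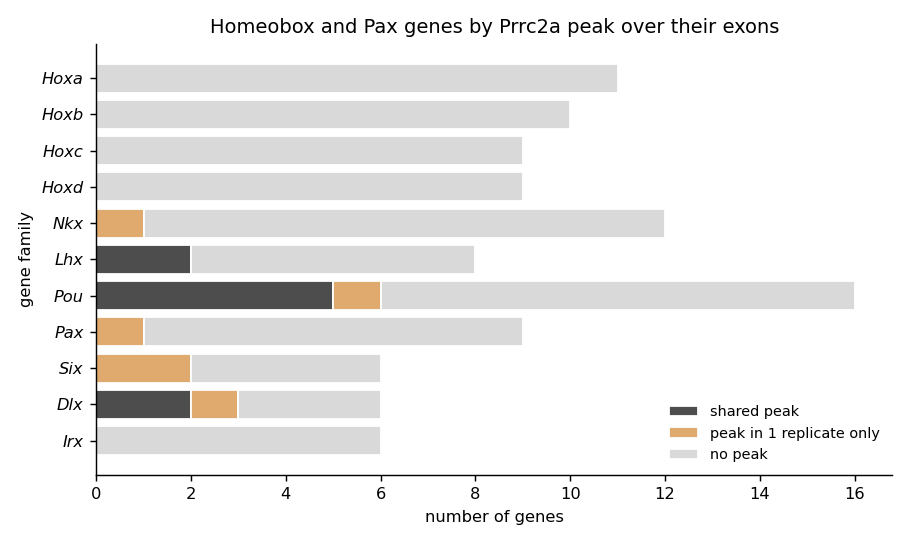
Number of genes (horizontal axis) in each of the 11 families (vertical axis), split into genes with a shared Prrc2a peak over their exons, with a peak in 1 replicate only, and with no peak. Shared peaks were in the Lhx (2), Pou (5) and Dlx (2) families, and the 4 Hox clusters and Irx had no peak of either replicate.

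The Hox genes had no Prrc2a peak at all. None of the 39 had an exonic peak in either replicate. The clusters are runs of neighbouring genes, so their 39 genes are not independent observations, and each cluster was also examined as 1 region. The Hoxa cluster (chr6:52155590-52260880, 105 kb), the Hoxb cluster (chr11:96194316-96368256, 174 kb), the Hoxc cluster (chr15:102921103-103036852, 116 kb) and the Hoxd cluster (chr2:74668310-74765142, 96.8 kb) held 0 peaks in replicate 1 and 0 in replicate 2, introns and intergenic sequence included. The nearest peak lay 154872 bp from the Hoxc cluster in replicate 1 and 154801 bp in replicate 2. From the Hoxb cluster it lay 422150 and 362634 bp away. From the Hoxd cluster it lay 1393404 and 776144 bp away, and from the Hoxa cluster 1558737 and 1556479 bp. The clusters thus lay in stretches without peaks in both replicates. How often stretches of such length hold no peak elsewhere in the genome was not counted, so whether this is particular to the Hox clusters is unknown.

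Exonic length moved with the presence of a peak, and Hox genes are short. The median length of all exons merged was 2472 bases over the 39 Hox genes, 3107.5 over the 48 genes outside Hox without a peak, 4187 over the 6 genes with a peak in 1 replicate and 5396 over the 9 genes with a shared peak. Among all protein-coding genes, 2.13% of those under 2500 exonic bases had a shared peak, 8.10% of those from 2500 to below 5000 and 26.5% of those of 5000 or more. In the shortest of these classes, 0 of 21 Hox genes and 0 of 15 other members had a shared peak. In the middle class the counts were 0 of 16 Hox genes and 4 of 30 others (13.3%). In the longest class they were 0 of 2 and 5 of 18 (27.8%). Outside Hox, the members' shares thus lay near those of all genes of like length. Whether length accounts for the absence of peaks on Hox genes was not tested. Median exonic GC was 55.2% in genes with a shared peak, 50.8% in those with a peak in 1 replicate, 53.5% in Hox genes and 54.9% in the other genes without a peak.

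**Figure D2:**
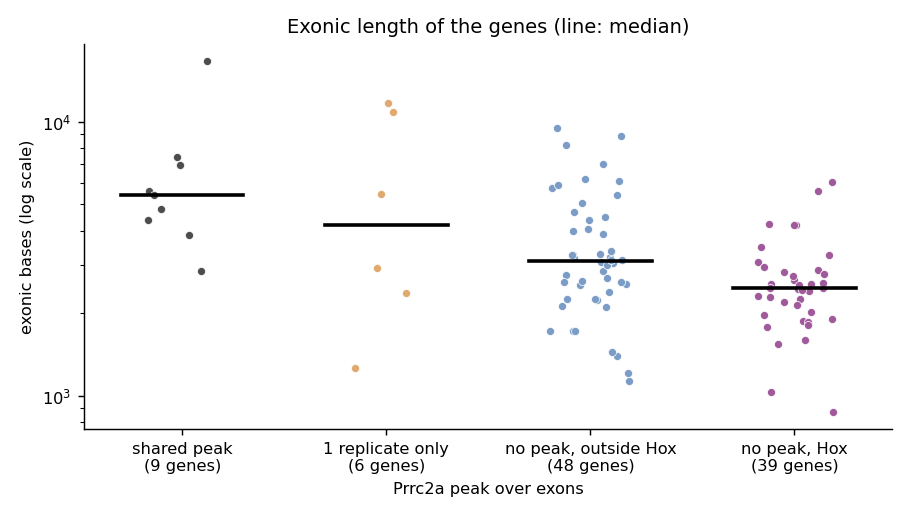
Exonic bases of each gene (vertical axis, log scale) by the presence of a Prrc2a peak, where each point is 1 gene, horizontal jitter carries no meaning and the line is the median. The 9 genes with a shared peak had between 2855 and 16597 exonic bases (median 5396), while the 39 Hox genes had between 874 and 6014 (median 2472).

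The Pou family held the most peaks, and they were concentrated in its Pou3 class. The Pou3 genes are neural POU factors without introns, and all 4 had a peak in replicate 1 and 3 of 4 a shared peak. Per 100 kb of exon, the class held 55.6 peaks in replicate 1 and 50.6 in replicate 2, against 12.3 and 16.5 over all protein-coding genes. Shared peaks numbered 35.4 per 100 kb, against 7.51. Many of these peaks were weak. At 2-fold or more in both peaks, 2 of the 16 Pou genes kept a shared peak, against 8.43% of all protein-coding genes. They were Pou2f1 and, of the Pou3 class, Pou3f3 alone. At 4-fold or more, no Pou gene kept one. Of the rest of the family, Pou2f1 was the only gene of 4 in the Pou2 class with a shared peak, and Pou6f1 also had one. Pou1f1, the pituitary factor, the 3 Pou4 genes of sensory neurons, and both Pou5 genes, which include the pluripotency factor Pou5f1, had no peak. The 4 Pou3 genes and Pou5f2 were the single-exon members, of which 3 of 5 had a shared peak (60.0%). Those 3 are the Pou3 genes counted above. Among all single-exon protein-coding genes the share was 10.3% (159 of 1548), and among members with several exons 6.19% (6 of 97). The single-exon genes are not alike in length, with a median of 3849 exonic bases over the 5 members and 1249 over all. The part of length was not tested.

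Pou3f3 (Brn1, a factor of upper-layer cortical neurons and kidney) was covered more completely than any other member. Peaks covered 76.7% of its 7409 exonic bases in replicate 1 and 49.7% in replicate 2, with 49.5% under peaks of both. The 4 wide replicate 1 peaks, 1202 to 1644 bp each, ran from the 5′ UTR to the 3′ UTR, and 6 replicate 2 peaks lay within or across them. In the 5′ UTR, chr1:42695663-42696964 was enriched 2.02-fold in replicate 1, and the pair of replicate 2 peaks beneath it had 2.15 and 3.06. Over the coding sequence and stop codon, chr1:42697235-42698872 had 1.84 and its 1515 bp partner 2.26. In the 3′ UTR, chr1:42699007-42700650 had 1.72 against 1.85 and 1.50 for its partners, and chr1:42701325-42702526 had 3.27 against 2.54. Replicate 1 was thus the lower over the coding sequence and the higher in the last 3′ UTR peak.

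Pou3f2 (Brn2, a factor of cortical neurons and neuronal reprogramming) had 4 peaks in replicate 1 and 3 in replicate 2, of which 2 were shared. The coding peak chr4:22486600-22487287 was enriched 1.98-fold in replicate 1 and 1.87-fold in replicate 2 and reached over the stop codon. The 3′ UTR peak chr4:22484261-22484634 had 1.83 and 3.53, the widest gap between replicates among the shared peaks of the set (log2 ratio of -0.95). The replicate 1 peaks without a partner, 1 over the start codon and 1 in the 3′ UTR, had 3.11 and 2.79, and the replicate 2 peak without a partner had 4.09. The highest value of this gene was thus in a peak that replicate 1 did not have. Peaks of both replicates covered 14.2% of its exonic bases.

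Pou3f1 (Oct6, which times the onset of myelination in Schwann cells) had 1 peak in each replicate. The peak chr4:124658656-124658888 lay wholly within the coding sequence, enriched 1.75-fold in replicate 1 and 2.25-fold in replicate 2, and the 2 starts differed by 1 bp. Its 233 bases held the helix codons printed above and ended shortly after them. Pou3f4 (Brn4, needed in the inner ear and hypothalamus) differed from its relatives. It had replicate 1 peaks of 2.68 over its coding sequence and 2.78 at its 3′ end, which covered 36.0% of its exonic bases, while the nearest replicate 2 peak lay 2010248 bp away. Pou3f4 thus had a peak in 1 replicate alone although its replicate 1 values were above those of Pou3f1.

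Pou2f1 (Oct1, a broadly expressed octamer-binding factor) had the longest exonic sequence of the 9 genes, 16597 bases, and the smallest share under peaks of both replicates, 1.21%. Its shared peak chr1:165875660-165875931 lay over the stop codon and was enriched 2.77-fold in replicate 1 and 3.01-fold in replicate 2. A coding peak of 1.96 was found in replicate 1 alone, and 3′ UTR peaks of 2.14 and 2.74 in replicate 2 alone. Pou6f1 (Brn5, a POU factor of the brain) had the lowest replicate 1 value of the 17 shared peaks in the set. The peak chr15:100577842-100578476 ran from the last coding exon over the stop codon into the 3′ UTR, with 1.59 in replicate 1 and 1.71 in replicate 2. Further replicate 2 peaks of 1.84 in the 3′ UTR and 1.82 in the 5′ UTR had no partner, so 34.8% of its exonic bases were covered in replicate 2 against 9.14% in replicate 1.

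**Figure D3:**
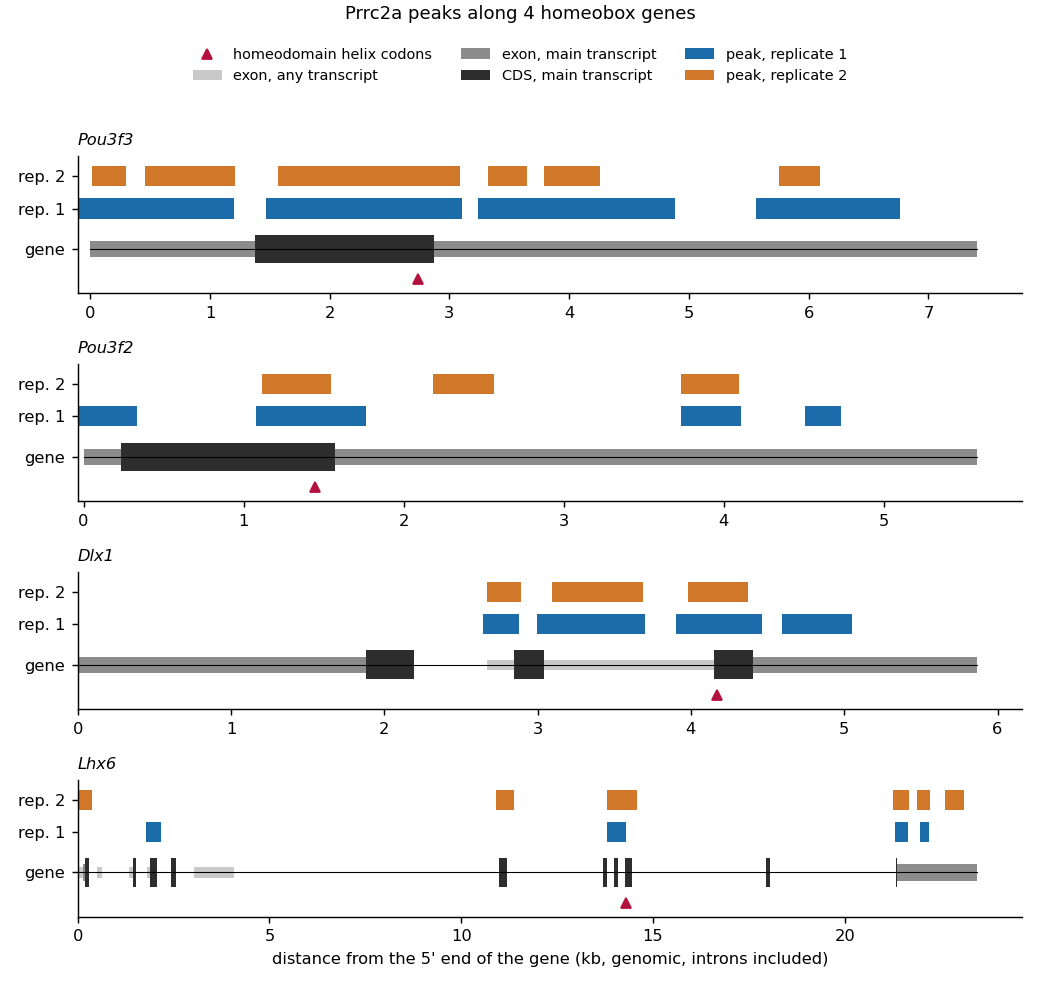
Peaks of replicates 1 and 2 along Pou3f3, Pou3f2, Dlx1 and Lhx6, drawn from the 5′ end of each gene (horizontal axis, kb of genomic distance, introns included), with the exons and coding sequence of the main transcript, exons of any other transcript, and the homeodomain helix codons as a triangle. Peaks of both replicates covered 49.5% of the exonic bases of Pou3f3 and lay over the retained intron and last exon of Dlx1. In Lhx6 they lay over the exon before the helix exon and over the 3′ UTR. Replicate 1 reached only the start of the helix exon, and replicate 2 covered it.

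Lhx6 carried the highest enrichment of the set. It is the LIM homeobox factor of cortical interneurons born in the medial ganglionic eminence. The peak chr2:36091125-36091600 had a fold enrichment of 4.68 in replicate 1, above 85.1% of all replicate 1 peaks, and its 778 bp partner had 5.69, above 95.5% of all replicate 2 peaks. Only 108 of the 476 bp in replicate 1 and 272 of the 778 bp in replicate 2 were exonic, since short exons alternate here with introns. The lists give peaks as 1 interval, so reads from unspliced RNA and reads that span the exons cannot be told apart. In the 3′ UTR, chr2:36083768-36084097 had 2.70 and 3.47 and reached the stop codon, and chr2:36083210-36083451 had 2.47 and 2.71. All 3 shared peaks were higher in replicate 2. Replicate 2 had 3 further peaks of 4.48, 3.35 and 2.51, and replicate 1 had 1 of 2.96, all without a partner. GGAC, the core of the m6A consensus, was searched on the gene's strand, and the exon wholly under the strongest peak held it 3 times. That coding stretch is shown with GGAC in capitals.
Lhx6, chr2:36091320-36091415, minus strand: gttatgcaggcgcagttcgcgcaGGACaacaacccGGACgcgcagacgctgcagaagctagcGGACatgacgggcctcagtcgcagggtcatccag

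Lhx2, a factor of cortical, hippocampal and eye development, had a single peak in each replicate. The replicate 1 peak chr2:38351207-38351715 had a fold enrichment of 2.11 and the replicate 2 peak 1.96, with 304 bp in common. The replicate 1 peak lay in the 5′ UTR, and the exonic bases of the 2 peaks were 72.9% and 75.1% GC. The replicate 2 peak reached over the start codon, and also over a stop codon annotated for a transcript of the gene. The other 6 Lhx genes had no peak. They include Lhx9, which has 9494 exonic bases, and Lhx3 and Lhx4, factors of motor neurons and the pituitary.

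Dlx1 and Dlx2, neighbouring genes that act together in the birth and migration of forebrain GABAergic interneurons, both had shared peaks. Dlx1 had 3. The strongest, chr2:71531106-71531812, was enriched 2.91-fold in replicate 1 and 3.74-fold in replicate 2. It lay almost wholly between the last 2 coding exons, in sequence that is exonic only in a transcript with a retained intron. Of its 707 bp, 51 were exonic in the main transcript, and of the 594 bp of its partner 0 were. On either side, chr2:71530755-71530992 had 1.64 and 1.72, and chr2:71532017-71532577, over the last coding exon and stop codon, had 1.68 and 1.75. The first of these also lay mostly outside the main transcript, with 36 of its 238 bp exonic there and 48 of the 222 bp of its partner. A replicate 1 peak of 1.74 in the 3′ UTR had no partner and also overlapped an exon of Dlx1as, the antisense gene. Since the lists hold no strand, these cannot be told apart. The strongest peak of Dlx1, in the retained intron, was thus above its shared peak over the last coding exon in both replicates.

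Dlx2 had a shared 3′ UTR peak, chr2:71544020-71544788, of 2.74 in replicate 1 and 2.38 in replicate 2. The partner was 235 bp wide against 769 bp, so the pair overlapped by less than 50% of the wider peak. A replicate 1 peak of 4.30 over the start codon had no partner, and 43.9% of the exonic bases of Dlx2 were covered in replicate 1 against 8.23% in replicate 2. Dlx6, which acts in the same interneurons and in the jaw, had 1 replicate 1 peak of 2.00 with 60 of its 242 bp in the gene. Dlx3, Dlx4 and Dlx5 had none.

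**Figure D4:**
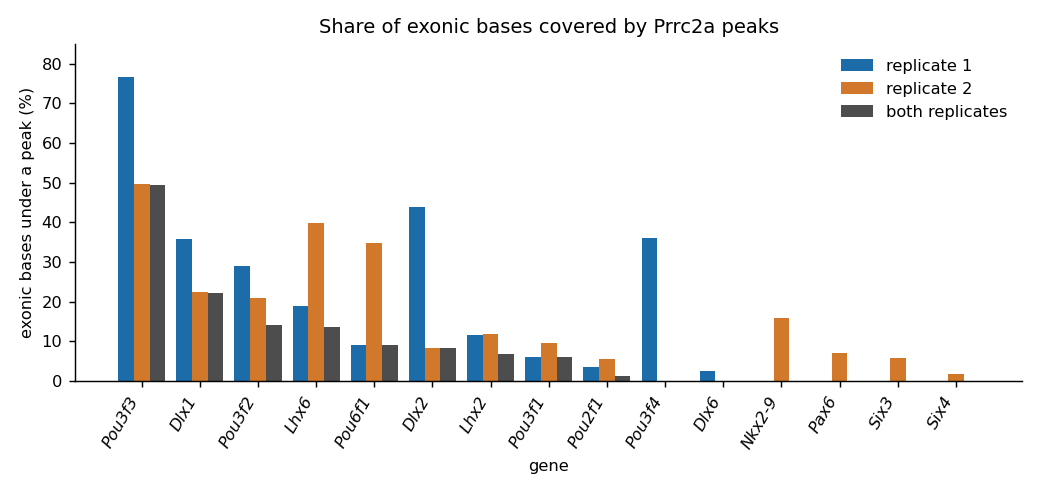
Percent of the exonic bases (vertical axis) of each of the 15 genes with any peak (horizontal axis) that lay under a peak of replicate 1, of replicate 2, and of both. Pou3f3 had the highest share under both (49.5%), and the 6 genes at the right had peaks in 1 replicate only.

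The remaining peaks were in replicate 2 alone. Pax6, the eye and cortical progenitor factor, had 2 peaks in its 5′ UTRs with fold enrichments of 4.30 and 3.26, and the nearest replicate 1 peak lay 855156 bp away. Six3, a factor of the anterior forebrain and eye, had 1 coding peak of 2.10. Six4, of muscle and sensory ganglia, and Nkx2-9, of the ventral neural tube, each had a coding peak of the smallest width, 200 bp, with the value 4.68. That value was shared by 96 replicate 2 peaks. Values held by at least 10 peaks of a list occurred in 7 of the 13 member peaks of replicate 2 without a partner and in 0 of its 19 with one. In replicate 1 they occurred in 1 of 9 and 1 of 17.

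No Irx gene had a peak, and neither did 8 of the 9 Pax, 11 of the 12 Nkx and 4 of the 6 Six-family genes. Several of these were longer than the median gene with a shared peak. Pax5 had 8853 exonic bases, Pax3 6187 and Pax8 6061. Nkx2-1, which acts upstream of Lhx6 in the ventral forebrain, had 2842 bases and no peak. No peak of either list lay in an intron of a member without touching an annotated exon of it, and none lay over exons of more than 1 member.

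Counted as peaks, the set held 26 in replicate 1, of which 17 were shared, and 32 in replicate 2, of which 19 were. This equals 7.05 and 8.68 peaks per 100 kb of exon, against 12.3 and 16.5 for all protein-coding genes. The 17 shared peaks were enriched by a median of 2.02 in replicate 1 (1.59 to 4.68) and 2.38 in replicate 2 (1.50 to 5.69). The medians of all 7317 shared peaks over protein-coding exons were 2.27 and 2.81. Replicate 1 was lower in 12 of the 17 (70.6%), close to 71.3% over all shared exonic peaks. The median log2 ratio of replicate 1 over replicate 2 was -0.12 (SD 0.32 over the 17 peaks), against -0.26 (SD 0.52) over all. The spread of this ratio was thus smaller in the set than over the whole list, and the medians of the members' shared peaks were below those of all shared exonic peaks in both replicates. The members' peaks without a partner had medians of 2.78 in replicate 1 and 3.26 in replicate 2, above the 2.49 and 2.26 of all exonic peaks without one. In replicate 2, 7 of these 13 peaks had a value held by at least 10 peaks of the list, so that median rests largely on tied values.

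**Figure D5:**
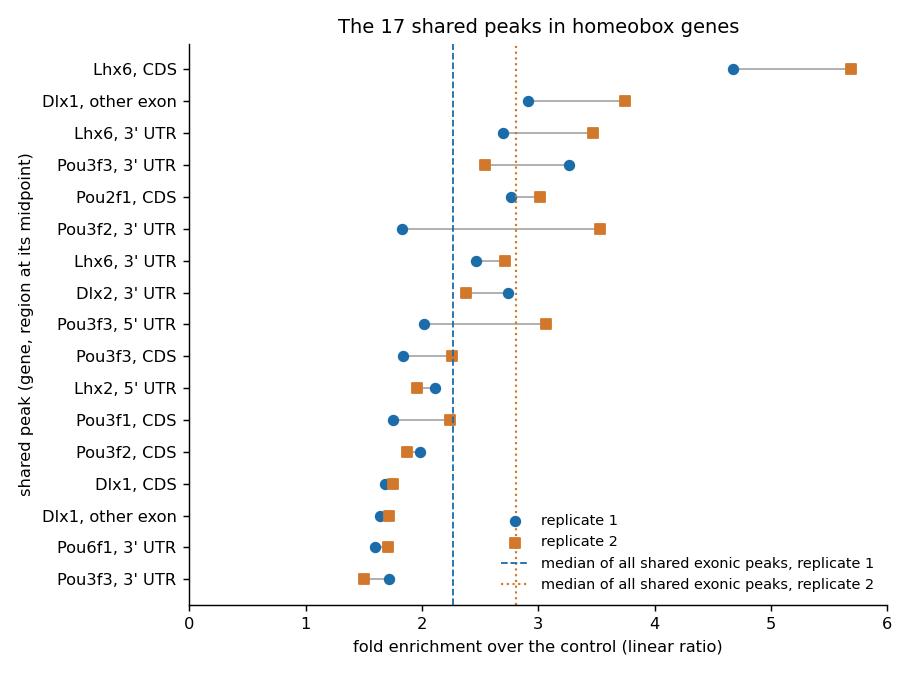
Fold enrichment over the control (horizontal axis, linear ratio) of the 17 shared peaks (vertical axis, gene and region), with circles for replicate 1, squares for replicate 2 and lines at the medians of all shared exonic peaks. The strongest Lhx6 peak stood apart at 4.68 and 5.69, and 12 of the 17 peaks were lower in replicate 1.

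By the annotation at the midpoint, 6 of the 17 shared peaks lay in coding sequence (35.3%), 7 in 3′ UTRs (41.2%), 2 in 5′ UTRs (11.8%) and 2 in other exons, both in Dlx1. Over all shared exonic peaks 50.9% lay in coding sequence, 30.3% in 3′ UTRs and 11.4% in 5′ UTRs. Taking every member peak, coding sequence held 34.6% in replicate 1 and 28.1% in replicate 2 (31.4% ± 4.59, SD, n = 2). Counted over the intervals of replicate 1, a stop codon lay under 7 of the 17 shared peaks (41.2%), in Lhx6, Pou2f1, Pou3f2, Pou3f3, Pou6f1, Dlx1 and Dlx2, against 12.9% of all. Over the intervals of replicate 2 it lay under 5 of 19 (26.3%), against 11.6%, and the partners in Pou3f2, Dlx1 and Dlx2 did not reach it. Lhx6, Pou2f1, Pou3f3 and Pou6f1 had a shared peak over a stop codon in both replicates. The 5 in replicate 2 also include the peak of Lhx2, which lay at the 5′ UTR and start codon. It was counted because stop codons of any annotated transcript of a gene were used. A start codon lay under 0 of the 17 replicate 1 intervals, against 13.1%, and under 1 of the 19 replicate 2 intervals (5.26%), that of Lhx2, against 12.2%. These shares rest on few peaks of 9 genes, and no test was made. The replicate 1 intervals of the members' shared peaks had a median width of 561 bp, against 469 bp over all shared exonic peaks. The part of width in the codon shares was not tested. In many homeobox genes the homeodomain lies in the last exon near the stop codon, and the helix codons and the stop codon lay under the same replicate 1 peak in Pou3f2, Pou3f3, Pou6f1 and Dlx1.

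GGAC was found on the gene's strand in 13 of the 17 shared peaks of replicate 1 (76.5%), against 77.9% of all shared exonic peaks, and in 16 of the 19 of replicate 2 (84.2%), against 76.7%. In replicate 1, GGACT, which contains it, was in 7 (41.2%) against 43.0%, and the density of GGAC was 4.51 per kb of exonic peak sequence, against 4.64. In replicate 2, GGACT was in 6 of the 19 (31.6%) against 41.5%, and the density of GGAC was 4.96 per kb against 4.73. The members thus held GGAC about as often as peaks in general. The lower share of GGACT was seen mainly in replicate 2 and rests on 6 of 19 peaks, too few for a firm difference. Single peaks ranged widely, from 11 occurrences in the coding peak of Pou3f3 to 0 in the 3′ UTR peak of the same gene with the higher enrichment. The coding stretch under both replicates in Pou3f1 held GGAC once, and is shown with it in capitals, because it runs through the homeodomain to the helix codons printed above.
Pou3f1, chr4:124658656-124658888, plus strand: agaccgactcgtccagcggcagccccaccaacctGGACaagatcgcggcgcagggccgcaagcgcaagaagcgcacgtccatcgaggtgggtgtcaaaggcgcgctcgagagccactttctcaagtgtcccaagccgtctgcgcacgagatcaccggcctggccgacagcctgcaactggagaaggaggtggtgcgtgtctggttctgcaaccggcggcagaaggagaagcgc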

How the data were processed

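Prrc2a RIP-seq libraries of whole brain (1 condition, 2 replicates) were analysed as deposited peak lists. According to the methods and the labels, the authors trimmed and aligned reads to mm10, discarded those that were not unique or had a mapping quality under 20, and called the peaks of every replicate separately at an FDR below 0.05. The submitters' processing notes name TopHat2 2.0.9 and MACS2 2.0.10, while the methods give other releases of both. The deposited value of each peak is its fold enrichment, a linear ratio over a control library that is not stated. The lists hold no read count, strand, FDR or gene, so the depth and the precision it gives are unknown, and the spread between replicates (SD, n = 2) is the only error available. The labels do not say whether the replicates came from separate brains.

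A peak was assigned to a gene when at least 1 bp overlapped an exon of any GENCODE M21 transcript, and counted as shared on an overlap of 1 bp or more between replicates. The region was the annotation at the midpoint. Coding sequence was read from GRCm38. The calculations used Python 3.11.15, numpy 2.4.6, pandas 2.3.3 and pysam 0.24.0, and figures matplotlib 3.10.9. All 5 quantities tested on simulated data were recovered. Every gene with a shared peak or with a peak in 1 replicate only was named, and genes without a peak were counted by family. Genes without a peak that are named by length or role were picked after their values were seen. The members and lists were chosen with earlier results of these data known. Alternatives were the overlap, the fold enrichment, the gene model, 1 gene per peak, the replicate counted and each replicate alone. Groups of samples were not compared, since there was 1 condition. Some genes that the naming rule selects are not reported here.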

Additional observations from a re-analysis of the deposited data

How the results depend on the processing

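The number of genes with a shared peak was 9 with whole gene spans, GENCODE basic transcripts, coding transcripts, 1 gene per peak and replicate 2 peaks counted, and 8, without Dlx2, when 50% of both peaks had to overlap, where the share of all protein-coding genes fell from 12.0% to 9.50%. Requiring 2-fold or more in both peaks left 5 genes (Dlx1, Dlx2, Lhx6, Pou2f1 and Pou3f3), all outside Hox, against 8.43% of all protein-coding genes, and 4-fold or more left 1, Lhx6, against 1.59%. Each replicate alone gave 11 to 13. The Hox count was 0 under every one of these alternatives. The share of shared peaks in coding sequence was 35.3%. It was 42.9% with 50% overlap, 25.0% at a fold enrichment of at least 2, 100% of the single peak at 4 or more, 26.3% with replicate 2 peaks counted and 28.1% to 34.6% with each replicate alone. The median fold enrichment of 2.02 became 2.76 and 4.68 at the 2 thresholds, by construction, 2.26 with replicate 2 peaks counted and 2.29 to 2.52 with each replicate alone. With replicate 2 peaks counted, an alternative chosen after seeing the data, stop codons lay under 26.3% of shared peaks in place of 41.2%. Read depth was unknown, so a missing peak sets no limit on binding, and 17 peaks in 9 genes are too few for a firm share.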

Other observations

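Of 108 further homeobox genes, 25 carried a shared peak (23.1%), against 12.0% of all protein-coding genes, and these too were unevenly spread. Among the zinc finger, CUT, Prospero and other large homeobox genes the count was 17 of 24 (70.8%), with a median of 8085.5 exonic bases, against 26.5% of all genes of 5000 exonic bases or more. High shared values were in Satb1, a chromatin organiser (8.73 in replicate 1 and 4.01 in replicate 2), and in Zfhx4 (6.51 and 3.87). In the TALE class, cofactors of Hox proteins among them, the count was 4 of 12 (33.3%), with Pknox2 at 1.86 and 3.97, Tgif2 at 2.58 and 3.05, and Meis2 at 1.35 and 3.15. Among paired-like genes it was 3 of 27 (11.1%), near the share of all genes, with Prrx1 at 2.73 and 8.11 and Alx4 at 3.04 and 7.02. Among other ANTP and LIM genes it was 1 of 45 (2.22%), with a median of 2250 exonic bases. That gene was Emx2, a cortical patterning factor, at 6.20 and 4.37. Shares and exonic length moved together over these lists, and the part of length was not tested.

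Of the pair of Nkx genes that the rule left out, Nkx2-2, an oligodendrocyte lineage factor, had 2 shared peaks, the stronger at 5.13 in replicate 1 and 5.31 in replicate 2, and Nkx6-2 had no exonic peak in either replicate. Of the remaining marker lists, endothelium had 0 of 3 genes and cerebellar granule cells 0 of 4 with a shared peak, and the latter had Neurod1 and Pax6 in replicate 2 only.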
